A study of Homo sapiens with 8 samples.

Results

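The GATM locus held 8 of the 24199 small open reading frames (smORFs) that the study annotated from ribosome profiling (Ribo-Seq). They were chosen by the gene name in the deposited annotation, where GATM is given as their host gene. GATM was taken up because one of them, IEC_24171, was among the smORFs with the greatest difference between differentiated and undifferentiated cells, so that difference is described below and not tested. The label of the gene as a host of upstream open reading frames (uORFs) held in part. The annotation classed 5 of the 8 as uORFs and 3 as lying in non-coding RNA, and no GATM smORF shared a base with the main GATM transcript.

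The cells were Caco-2, a cell line from a human colon adenocarcinoma that comes to resemble absorptive enterocytes once it has been kept at confluence. There were 4 groups with 2 libraries each. Undifferentiated cells formed the first group and differentiated control cells the second. The other 2 groups were differentiated cells given micelles without lipid, made of the bile salt taurocholate, and differentiated cells given lipid micelles that carried oleic acid, cholesterol and bovine serum albumin. All 8 libraries come from this single line, and the labels do not state whether the 2 libraries of a group came from separate cultures, so p-values measure the spread between these libraries, which may be technical. Library totals ran from 506382 to 884711 smORF counts.

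GATM encodes L-arginine:glycine amidinotransferase, the mitochondrial enzyme that carries out the first and rate-limiting step of creatine synthesis. It moves the amidino group of arginine to glycine, which gives guanidinoacetate and ornithine, and guanidinoacetate is then methylated to creatine by GAMT with S-adenosylmethionine as the methyl donor. Kidney and pancreas are well known for the first step. A uORF is a reading frame in the leader of an mRNA ahead of the main coding sequence, and ribosomes that translate it often initiate less at the coding sequence behind it. Ribo-Seq counts record ribosome-protected fragments, and more RNA cannot be told apart here from more ribosomes per RNA.

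The GATM gene lies on the minus strand of chromosome 15, from 45361124 to 45402327 (hg38, GENCODE release 44). Its main transcript, GATM-201, has 9 exons and a coding sequence of 1269 nt, and it starts at 45378544. The 8 smORFs lay 1.957 to 18.654 kb upstream of that start site, in alternative first exons and leader exons. These exons were shared with 4 of the 19 annotated GATM transcripts. GATM-202, GATM-203 and GATM-211 have no defined coding sequence, while GATM-212 is annotated as coding. Both GATM-211 and GATM-212 join upstream sequence to the second exon of the main transcript. Of the smORFs classed as uORFs, only IEC_19595 lay whole in GATM-212. IEC_21110, IEC_21109 and IEC_19594 lay whole only in transcripts without a defined coding sequence, and IEC_24171 lay whole in none. IEC_21110 lay whole in GATM-203 and in GATM-211, and the latter reaches the second exon of the main transcript. No transcript with a defined coding sequence holds these uORF-class frames whole, so their class is that of the annotation alone. No smORF base fell in an annotated coding sequence, and no gene on the opposite strand overlapped the 8 smORFs.

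Going from the 5′ end of the locus, IEC_21111 (chromosome 15, 45397198 to 45397227) was a single-exon smORF of 10 amino acids of the non-coding class. IEC_21110 (45397057 to 45397176) was the longest, with 40 amino acids in a single exon and the uORF class. IEC_19595 (45397038 to 45397061) encodes 8 amino acids, was classed as a uORF, and was the sole smORF that lay with all of its 24 nt in annotated untranslated sequence. It shares 5 nt with IEC_21110 in another frame. These 3 smORFs sat within the longer forms of the first exon of GATM-203 and GATM-211.

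The next 4 smORFs were spliced. IEC_21109 and IEC_19594, both classed as uORFs, begin at the same ATG and share a first exon part of 31 nt (45396922 to 45396952). IEC_21109 continues for 11 nt into a middle exon (45396243 to 45396253) and encodes 14 amino acids, whereas IEC_19594 continues for 32 nt into a downstream exon (45380528 to 45380559) and encodes 21. IEC_21108, of the non-coding class, joins 10 nt at the end of the middle exon (45396167 to 45396176) to the same 32 nt and encodes 14 amino acids. IEC_24171, classed as a uORF and with 16 amino acids, joins the last 6 nt of the upstream exon to 42 nt of the downstream exon (45380528 to 45380569). Its downstream exon starts 10 nt further upstream than the annotated one, and no GENCODE transcript of GATM holds it whole. Both acceptor sites are preceded by ag in the genome. The last smORF, IEC_21107 (45380501 to 45380524), encodes 8 amino acids on the same downstream exon.

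**Figure D1:**
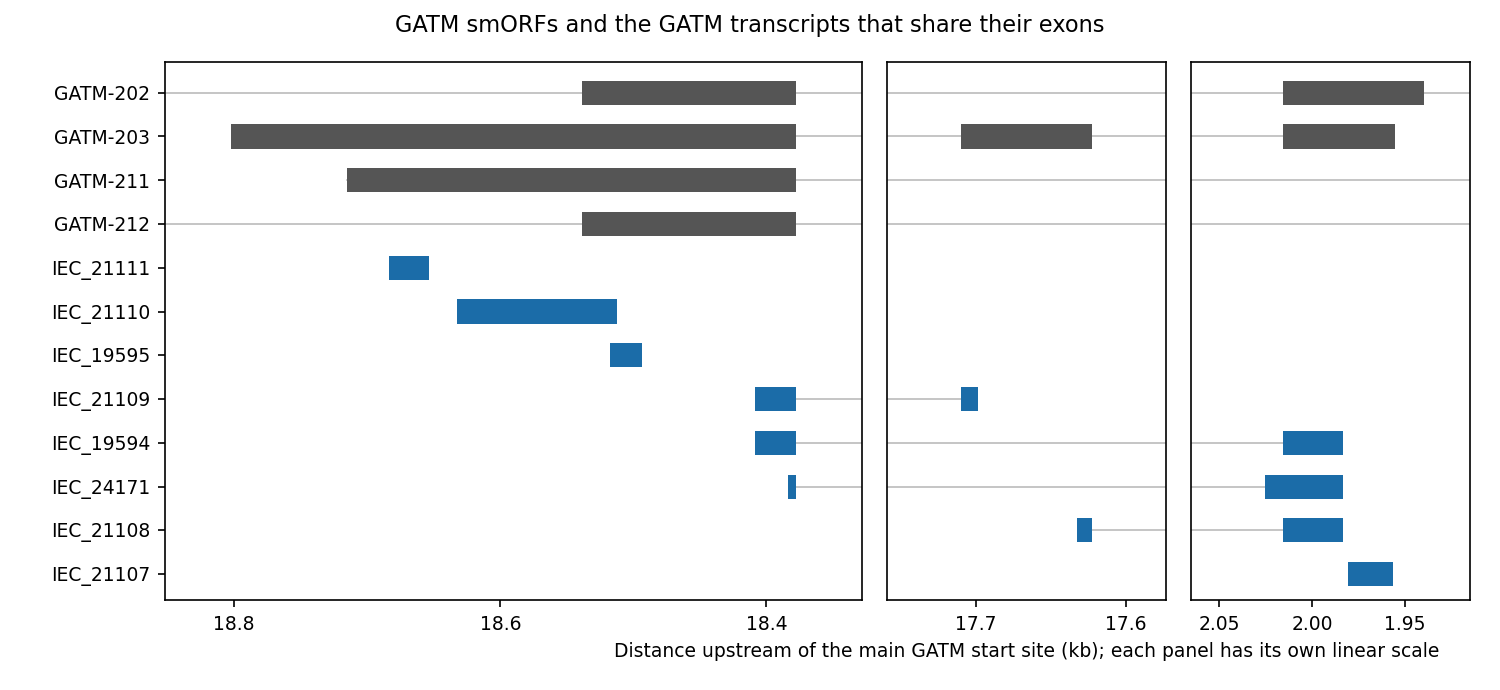
GATM transcripts (grey) and the 8 GATM smORFs (blue) by distance upstream of the main GATM start site in kb, in 3 windows that each have their own scale, with boxes for exons and thin lines for introns. The smORFs fall on an upstream exon 18.4 to 18.7 kb away, on a middle exon, and on a downstream exon about 2.0 kb away, and IEC_24171 starts its second box 10 nt before the annotated exon.

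The sequences that tell the smORFs apart are their short reading frames and splice junctions, read on the coding strand from the deposited hg38 coordinates. The genome sequence was identical to the deposited one for all 8. The 3 shortest single-exon frames are shown whole, with an ATG start in capitals where there is one.
IEC_21111: ATGtcaggaacgagagtgaagaccaaacat
IEC_19595: ggaagtgacattccagctgagacg
IEC_21107: gagaatcagacctcagaggtggct
The junctions of the 4 spliced smORFs follow, with the second exon in capitals.
IEC_21109: aattaacagaagATCTTGGGGAC
IEC_19594: aattaacagaagGAGAAGCACATC
IEC_24171: cagaagTTCTTTTCAGGA
IEC_21108: caacttcaagGAGAAGCACATC
The first exon side is alike in IEC_21109 and IEC_19594 and the second exon side is alike in IEC_19594 and IEC_21108, which shows where these smORFs can share reads. The ATG that IEC_21109 and IEC_19594 share lies in the following context, with the start codon in capitals.
Shared start: gattggaatATGcttttt

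In first codon, 3 of the 8 began with ATG and the other 5 with a codon that is neither ATG nor 1 base away from it. Over all 24199 smORFs, 43.4% began with ATG and 47.4% with such another codon. The GATM smORFs were short, with a median of 14 amino acids against 31 overall. Their RibORF scores, which rate the coverage and 3-base periodicity of a reading frame, ran from 0.734 for IEC_21107 to 1.042 for IEC_21109, with a median of 0.826 against 0.876 overall. The mean PhyloCSF score, which is above 0 where substitutions between species resemble those of a conserved coding sequence, was below 0 for all 8 and ran from -8.443 to -3.887. Of all smORFs, 1.75% had a mean above 0. A stop codon followed 7 of the 8 frames, and IEC_21107 was the exception, with gca after its last codon, where GATM-203 also ends. A stop codon also lay directly before the first codon of IEC_21110 (tag), IEC_19595 (tga), IEC_21108 (tag) and IEC_21107 (taa). In the upstream exon end printed above, taa likewise precedes the cag with which IEC_24171 begins. The first codons of these 5 frames thus follow on a stop and were not shown to be sites of initiation.

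All 8 GATM smORFs were marked as overlapping a repeat, as were 39.7% of all smORFs. Each of the 287 windows of 28 nt that start in their exons occurred once in hg38, so an unspliced read of that length from there has 1 exact match in the genome. The windows ran along the genome and were matched exactly. Reads across the splice junctions and copies with mismatches were therefore not searched. The smORFs instead share reads with one another. They formed 4 overlap clusters, and the counts of IEC_21109 and IEC_21108 together came to between 94.4% and 100% of the count of IEC_19594 in the 8 libraries. Members of a cluster are therefore not independent measurements. Of the 7370 host genes, 9.59% held at least 8 smORFs, and the median was 2.

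In undifferentiated cells the GATM smORFs held few counts. The counts are of smORFs alone, so ribosomes on the main GATM coding sequence were not measured here. Taking the smORF with the most counts in each of the 4 overlap clusters, the sum was 9 counts in each undifferentiated library. The same sum was 308 and 465 counts in the differentiated control libraries, 371 and 424 with micelles without lipid, and 394 and 462 with lipid micelles. As CPM, the count rate relative to the TMM-scaled library total, this was 14.4 ± 1.24 in undifferentiated cells and 583 ± 1.88 in control cells (SD, n = 2). The micelle groups stood at 608 ± 59.4 CPM without lipid and 543 ± 33.1 CPM with it (SD, n = 2). The control level was 40.5-fold that of undifferentiated cells, with an exact counting interval (95%) of 25.4 to 68.7. This interval and the counting intervals of the ratios below cover counting error alone. They pool the 2 libraries of a group and leave out the spread between them. The choice of the gene by this same comparison, which favours large ratios, is not allowed for in them. PCR duplicates were not resolved either. The 3 differentiated groups lay together, all far above both undifferentiated libraries.

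All 8 GATM smORFs were higher in both control libraries than in both undifferentiated libraries. Of the 15182 smORFs tested, 17.7% were called higher in this comparison by edgeR's quasi-likelihood test, at an adjusted p under 0.05 and a log2 fold change of at least 1. That share is of calls, which is another measure than libraries lying apart. The share of all smORFs with both control libraries higher was not computed. Because this comparison chose the gene, nothing is read from the count of 8. All 8 passed the filter on low counts, which they could do through the differentiated libraries alone.

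IEC_24171, the smORF with the unannotated acceptor, had 0 counts in both undifferentiated libraries. Control cells gave 60 and 83 counts, micelles without lipid 55 and 66, and lipid micelles 43 and 81. Set against 3 counts per library, the control level of 109 ± 6.37 CPM (SD, n = 2) was at least 22.6-fold higher. IEC_21108, which shares most of its downstream exon, was also at 0 in both undifferentiated libraries. Control cells gave 50 and 71 counts, against 47 and 53 with micelles without lipid, and 38 and 70 with lipid micelles. IEC_24171 exceeded it by 10 and 12 counts in control cells, 8 and 13 with micelles without lipid, and 5 and 11 with lipid micelles. Most counts of IEC_24171 may thus come from bases that both share, and they do not show use of the unannotated acceptor. The control level of IEC_21108, 91.7 ± 3.68 CPM, was at least 19.0-fold higher. The depth of the undifferentiated libraries does not allow a statement that these 2 smORFs are absent there.

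IEC_19594, which runs from the shared ATG into the downstream exon, had 2 and 4 counts in undifferentiated cells and 108 and 178 in control cells. With micelles without lipid it had 127 and 132 counts, and with lipid micelles 113 and 176. Its control level was 44.9-fold that of undifferentiated cells, with a counting interval of 20.4 to 123. Its fitted log2 fold change was 5.41 and became 6.07 without undifferentiated replicate 2. IEC_21109, from the same ATG into the middle exon, also had 2 and 4 counts in undifferentiated cells, against 52 and 103 in control cells, 80 and 76 with micelles without lipid, and 74 and 106 with lipid micelles. The ratio for control cells was 24.4, with an interval of 10.9 to 67.4, and the fitted log2 fold change was 4.51, or 5.17 without undifferentiated replicate 2. The undifferentiated counts of both smORFs were thus the same 6 in number, while IEC_21108 and IEC_24171, which use the downstream exon without that ATG, had none.

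IEC_21110, the longest frame and the one with the most counts in all, had 3 and 4 counts in undifferentiated cells and 118 and 156 in control cells. It reached 164 and 183 counts with micelles without lipid and 199 and 183 with lipid micelles. The control level was 36.9-fold that of undifferentiated cells, with an interval of 17.7 to 92.6. IEC_19595, which overlaps its end, had 3 and 2 counts in undifferentiated cells, 79 and 145 in control cells, 129 and 104 with micelles without lipid, and 122 and 75 with lipid micelles. Its ratio for control cells was 42.2, with an interval of 17.8 to 131. The 2 lipid micelle libraries of IEC_19595 stood at 175 and 84.4 CPM, the widest gap between replicates of a differentiated group among the 8 smORFs.

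IEC_21111, the most upstream frame, had 3 and 1 counts in undifferentiated cells, 56 and 87 in control cells, 54 and 63 with micelles without lipid, and 47 and 58 with lipid micelles. Its ratio for control cells was 33.7, with an interval of 12.9 to 125, and its fitted log2 fold change was 4.99, or 5.83 without undifferentiated replicate 1. IEC_21107, at the other end, had 1 and 0 counts in undifferentiated cells, 26 and 44 in control cells, 26 and 46 with micelles without lipid, and 35 and 45 with lipid micelles. Its ratio of 66.0 has an interval of 11.5 to 2643, as it rests on a single undifferentiated count. The fitted log2 fold change of 5.74 became 4.97 without undifferentiated replicate 2, and without replicate 1 no undifferentiated count is left.

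**Figure D2:**
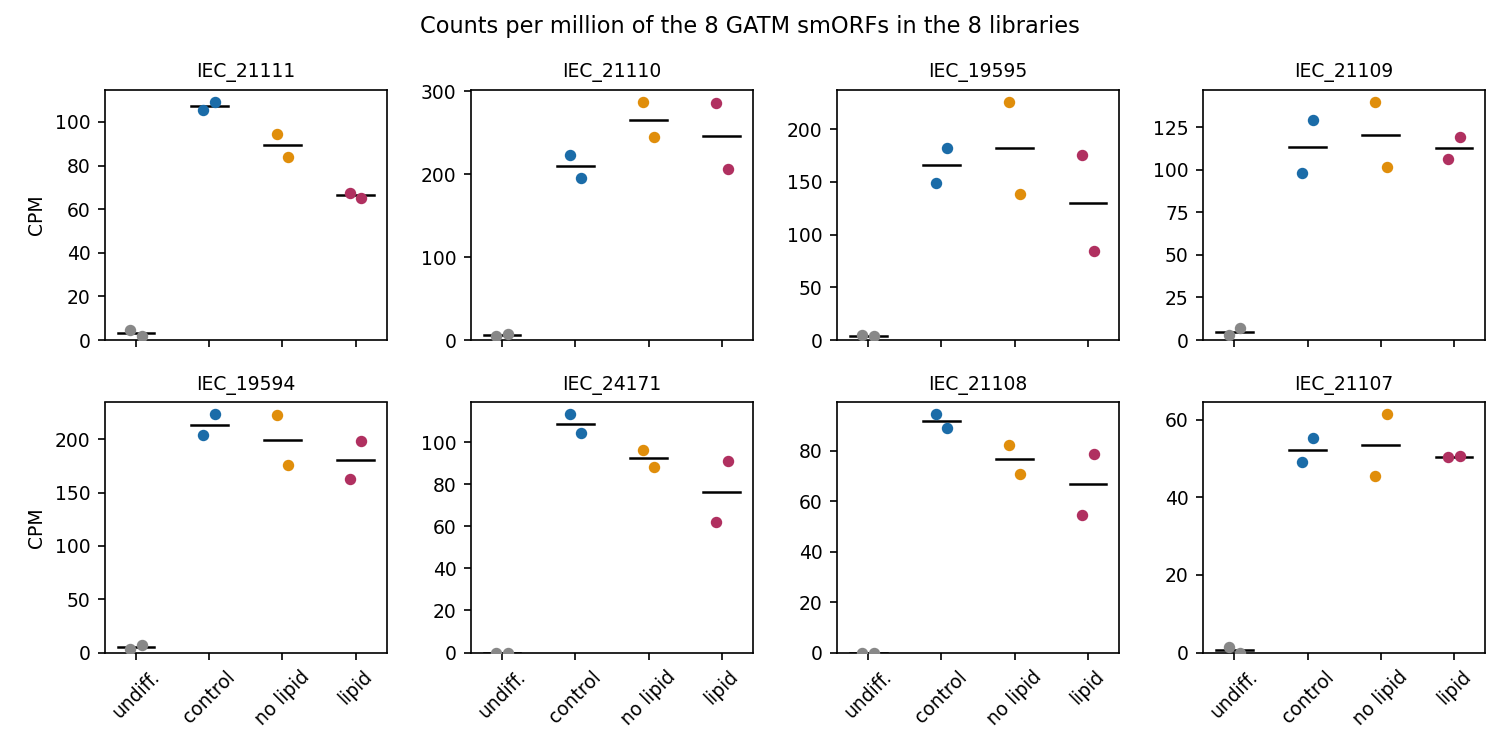
CPM (linear axes from 0, each panel with its own range) of each GATM smORF in undifferentiated cells (undiff.), differentiated control cells (control), micelles without lipid (no lipid) and lipid micelles (lipid), with a point per library and a bar at the mean of 2. In each panel the 6 differentiated libraries lie above both undifferentiated ones, which hold at most 4 counts.

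Per nucleotide of reading frame, the highest level over the 6 differentiated libraries was that of IEC_19595, at 6.64 ± 1.99 CPM per nt (SD, n = 6, 3 groups together). IEC_19594 followed at 3.14 ± 0.39, IEC_21111 at 2.92 ± 0.62 and IEC_21109 at 2.76 ± 0.40 CPM per nt. The 4 others lay between 1.87 ± 0.34 for IEC_21108 and 2.17 ± 0.23 for IEC_21107. The step from IEC_19595 to IEC_19594 and that from IEC_21109 to IEC_21107 exceeded the SD of both neighbours, though the lowest library of IEC_19595 (3.52 CPM per nt) lay below the highest of IEC_19594 (3.55), and that of IEC_21109 (2.34) below the highest of IEC_21107 (2.56). All other neighbours in this order differed by less than the larger of their SDs. IEC_19595 and IEC_21107 are shorter than a ribosome footprint, so reads that also cover bases outside the frame count towards them. In control cells, the level per nt of the 8 smORFs exceeded that of between 91.7% (IEC_21110) and 98.7% (IEC_19595) of the 15182 smORFs tested, where the median was 0.29 CPM per nt. The control libraries served to choose the gene, so a high rank there follows in part from that choice. With micelles without lipid the range was 91.9% (IEC_21108) to 98.7% (IEC_19595). With lipid micelles it was 90.5% (IEC_21108) to 97.9% (IEC_19595).

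The counts were also divided by exon, as a description of where on the locus the ribosomes lay. IEC_21111, IEC_21110, IEC_19595 and IEC_21109 were summed for the upstream side, and IEC_24171 and IEC_21107 for the downstream exon, with few bases counted in both. The downstream exon held 22.0% and 20.6% of these counts in the 2 control libraries, 15.9% and 20.8% with micelles without lipid, and 15.0% and 23.0% with lipid micelles. The Wilson intervals (95%) of the 2 lipid micelle libraries, 12.2% to 18.3% and 19.7% to 26.7%, did not meet. These intervals take each count as a separate read. Reads counted for both IEC_21110 and IEC_19595, and PCR duplicates, would make them too narrow. Whether the replicates differed by more than counting error is therefore not settled. The difference between the micelle groups was 0.61 percentage points, with p = 1 in a two-sided exact permutation test, whose smallest possible p with 2 libraries against 2 is 0.333. In undifferentiated cells, 1 of 12 and 0 of 11 counts fell on the downstream exon. The interval of the first reaches 35.4% and the second allows a share of up to 27.3%, so a share like that of the differentiated libraries was not distinguishable at this depth.

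**Figure D3:**
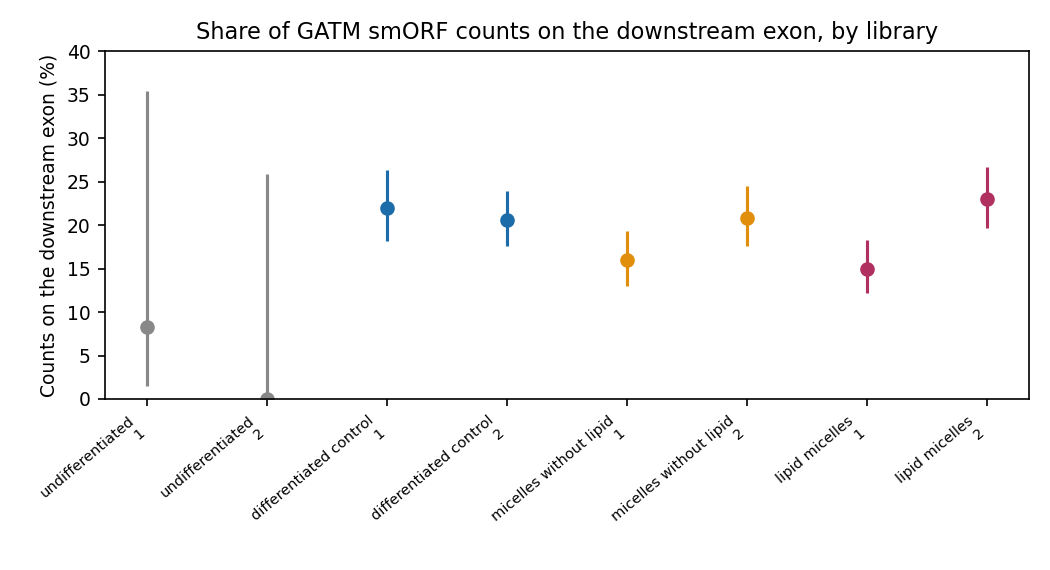
Percent of GATM smORF counts that fell on the downstream exon in each library, with 95% Wilson intervals as bars. The 6 differentiated libraries lie between 15.0% and 23.0%, and the intervals of the undifferentiated libraries, with 12 and 11 counts, span all of them.

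The comparisons among differentiated cells asked whether micelles, with or without lipid, altered the GATM smORFs. Both comparisons against control cells use the control libraries that also served to choose the gene, and the comparison of the 2 micelle groups shares none with them. By edgeR, 0 of 8 GATM smORFs were called with micelles without lipid against control, where 0% of the 15182 smORFs tested were called. An unadjusted p under 0.05 was seen for 0 of 8 and for 4.08% of all. DESeq2's Wald test called 0 of 8 as well, and 2 smORFs in the whole table. Log2 fold changes ran from -0.27 for IEC_21111 to 0.34 ± 0.26 (SE) for IEC_21110, 4 of the 8 were below 0, and the median was -0.03 against 0.01 over all smORFs tested. The 95% intervals of all 8 lay within 1 log2 unit of 0. Both micelle libraries lay above both control libraries for IEC_21110 (16.3% of all smORFs tested) and below them for IEC_21111, IEC_24171 and IEC_21108 (15.8%). When equally numbered libraries of the 6 differentiated ones were paired in a replicate block, 15 smORFs of the whole table were called, and 0 of the 8 GATM smORFs.

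With lipid micelles against control, 0 of 8 GATM smORFs were called by edgeR and 0 of 8 by DESeq2, and again 0% of all smORFs tested were called. A single GATM smORF had an unadjusted p under 0.05, where 708 of the 15182 smORFs (4.66%) did. It was IEC_21111, at 67.6 and 65.2 CPM with lipid micelles against 106 and 109 CPM in control cells and 94.6 and 84.1 CPM with micelles without lipid. The lipid micelle libraries were the lowest of the 6 and the control libraries the highest. Its log2 fold change was -0.70 ± 0.28 (SE), with a 95% interval of -1.28 to -0.11 and an adjusted p of 0.957 by edgeR, and over the alternatives the adjusted p ran from 0.601 to 1. Without either control library, and with DESeq2, 0 of 8 had an unadjusted p under 0.05. Across the 8 smORFs the median log2 fold change was -0.31 against 0 over all smORFs tested, and 7 were below 0, all but IEC_21110 at 0.23 ± 0.25. IEC_24171 was at -0.49 ± 0.29 and IEC_21108, with which it shares reads, at -0.45 ± 0.30. In 4 of the 8, both lipid micelle libraries lay below both control libraries, as they did for 17.4% of all smORFs tested. The 4 are IEC_21111, IEC_19594, IEC_24171 and IEC_21108, and the last 3 share bases. The replicate block called 1 smORF in the whole table and 0 of the 8.

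Between lipid micelles and micelles without lipid, edgeR called 0 of 8 GATM smORFs and 0% of all smORFs tested, and DESeq2 called 0 of 8. None of the 8 had an unadjusted p under 0.05, as 4.11% of all had. All 8 log2 fold changes were below 0, from -0.50 ± 0.33 for IEC_19595 to -0.09 ± 0.28 for IEC_21109, with adjusted p = 0.999 by edgeR for each and a median of -0.16 against -0.01 over all smORFs tested. Single libraries moved the value of IEC_19595, which was -1.09 without lipid micelles replicate 1, -0.05 without lipid micelles replicate 2, -0.11 without micelles without lipid replicate 1 and -0.80 without micelles without lipid replicate 2. In the first and last of these it had an unadjusted p under 0.05, with adjusted p of 1 and 0.668 by edgeR. The libraries of the groups overlapped for 7 of the 8. IEC_21111 was the exception, lower in both lipid micelle libraries, as 16.9% of all smORFs tested were. The 95% intervals reached down to -1.18 for IEC_19595 and -1.02 for IEC_21111, while those of the other 6 stayed above -1. The highest upper end was 0.59, for IEC_21107. The replicate block called 14 smORFs in the whole table and 0 of the 8.

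**Figure D4:**
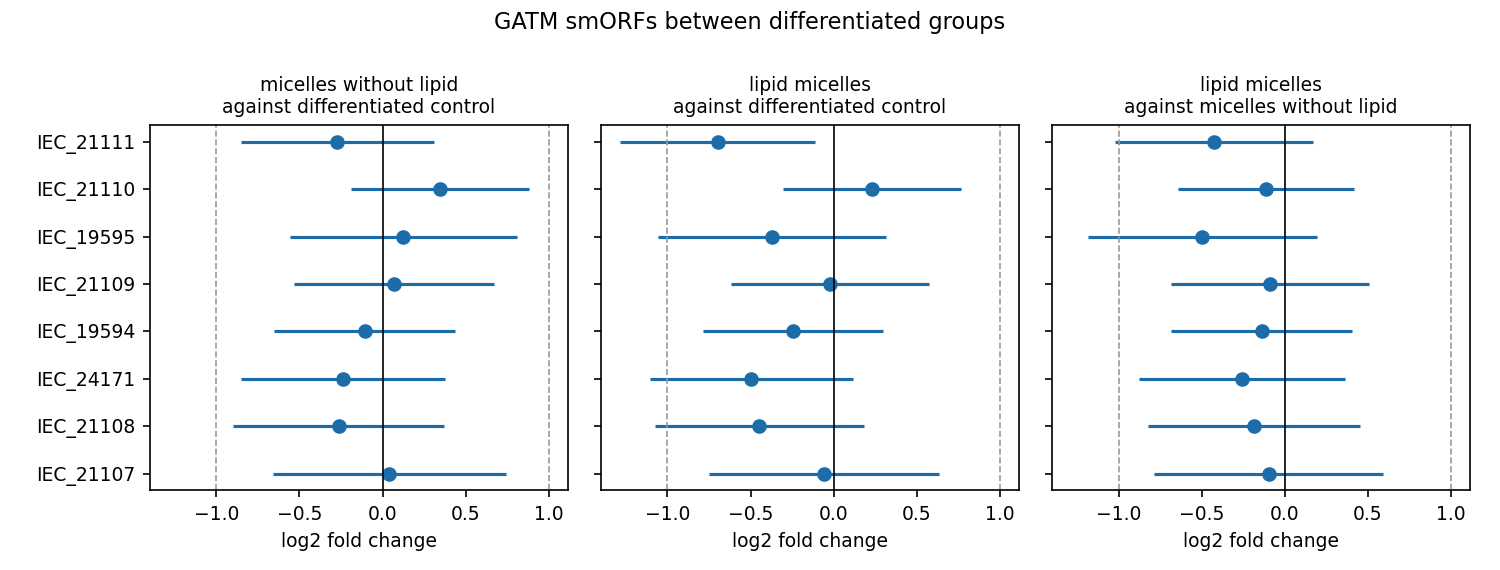
Log2 fold change of each GATM smORF in the 3 comparisons among differentiated groups, with 95% intervals as bars and dashed lines at 1 and -1. Of the 24 intervals, that of IEC_21111 with lipid micelles against control is the one that lies apart from 0, from -1.28 to -0.11, and its adjusted p was 0.957.

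The other genes of the pathway were described by the smORFs they host, which speak for those reading frames and not for the enzymes' own coding sequences. Of 51 genes on 4 lists (creatine, arginine and ornithine, glycine and serine, and S-adenosylmethionine), 24 held 94 smORFs, and 63 smORFs in 16 genes passed the filter. GAMT and the creatine transporter SLC6A8 held none. In differentiated control against undifferentiated cells, 14 of the 63 were called higher (22.2%, against 17.7% of all smORFs tested) and 18 lower (28.6%, against 15.6%). Overlapping smORFs of a gene share reads, so these counts and those by gene below are not of independent members. With 1 smORF per overlap cluster, which tests fewer smORFs, 13 pathway smORFs were called, against 32 here. The calls fell in 9 of the 16 genes, 4 with smORFs called higher and 5 with smORFs called lower. The median log2 fold change of the 63 was -0.24, against 0.01 over all.

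Among the creatine genes, both tested smORFs of CKB, the cytosolic brain-type creatine kinase, rose. IEC_16020 went from 39.5 ± 6.78 to 119 ± 24.7 CPM (SD, n = 2), a log2 fold change of 1.60 ± 0.32 (SE, adjusted p = 0.00096 by edgeR), and IEC_16019 had 2.08 ± 0.37 (adjusted p = 0.00035 by edgeR). Both lie in the 3′ untranslated region. Among the arginine and ornithine genes, all 4 tested smORFs of CPS1, the mitochondrial carbamoyl phosphate synthetase, rose. IEC_12488 had 8 and 6 counts in undifferentiated cells and 227 and 330 in control cells, with a log2 fold change of 5.20 ± 0.37 (adjusted p = 3.33e-08 by edgeR). IEC_12487 had 2 and 5 counts against 59 and 89, and IEC_12489 and IEC_12492 were at 0 in both undifferentiated libraries and at least 6.92-fold and 4.04-fold higher in control cells. CPS1 is the gene of the lists whose smORFs came nearest to the fold of the GATM smORFs.

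In OAT, the ornithine aminotransferase, 5 of the 7 tested smORFs rose (IEC_20129, IEC_20130, IEC_20164, IEC_20165 and IEC_20166), with log2 fold changes from 1.79 ± 0.55 to 2.83 ± 0.40. In ALDH18A1, which makes the precursor of proline and ornithine from glutamate, 3 of 6 rose (IEC_20027, IEC_20028 and IEC_20119), with log2 fold changes from 1.42 ± 0.32 to 2.35 ± 0.67. OAT has processed copies elsewhere in the genome, and PSPH below has a near copy, so how reads were divided between copies is uncertain.

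Of 21 tested smORFs in 5 transporter genes of the arginine and ornithine list, 10 were called lower (47.6%, against 15.6% of all smORFs tested) and 0 higher. They are not independent members, and IEC_04243 and IEC_12343 of SLC3A2 both had 15 and 16 counts in control cells. All 5 tested smORFs of SLC3A2, the heavy chain that carries several amino acid transporters to the membrane, fell (IEC_04243, IEC_04244, IEC_09040, IEC_12343 and IEC_12344), with log2 fold changes from -2.45 ± 0.50 to -1.55 ± 0.40. Both smORFs tested of SLC7A6, a light chain that partners it, fell, with log2 fold changes of -1.72 ± 0.38 for IEC_00190 and -1.55 ± 0.31 for IEC_09971. In SLC7A1, the cationic amino acid transporter, 3 of 4 fell (IEC_17422, IEC_17423 and IEC_24173), from -3.26 ± 0.78 to -1.64 ± 0.59. No smORF of SLC7A7 or SLC7A9 was called, and IEC_14226 of SLC7A7 was at 0.87 ± 0.28 and IEC_22508 of SLC7A9 at 1.80 ± 0.76. Among the glycine and serine genes, 2 of 3 smORFs of SHMT2, the mitochondrial enzyme that makes glycine from serine, fell (IEC_02418 at -2.13 ± 0.50 and IEC_09665 at -1.92 ± 0.43). In PSPH, the last enzyme of serine synthesis, 6 of 10 fell (IEC_14088, IEC_17769, IEC_18273, IEC_18615, IEC_18809 and IEC_18810), from -1.48 ± 0.26 to -1.38 ± 0.24. None of the 7 tested smORFs of the S-adenosylmethionine genes was called, in MAT1A or MAT2B.

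In the 3 comparisons among differentiated groups, 0 of the 63 pathway smORFs were called by edgeR, as were 0% of all smORFs tested. An unadjusted p under 0.05 was found for 4 of the 63 with micelles without lipid against control, 1 with lipid micelles against control and 2 with lipid micelles against micelles without lipid, where 4.08%, 4.66% and 4.11% of all smORFs tested had one.

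**Figure D5:**
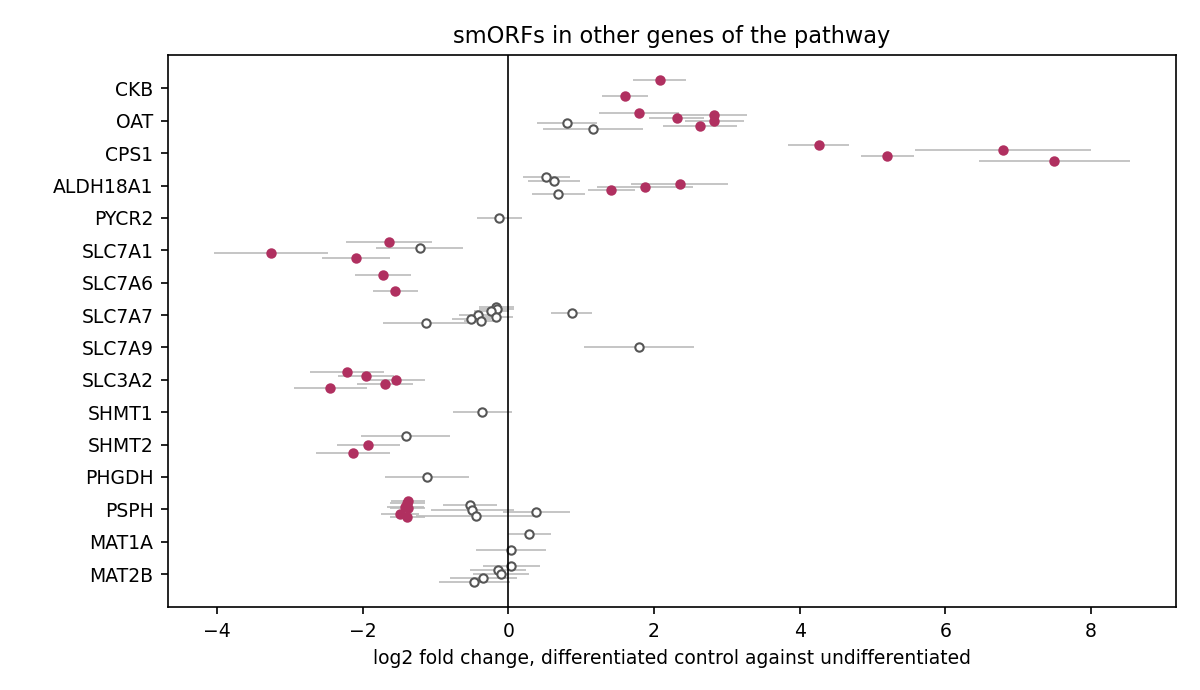
Log2 fold change (differentiated control against undifferentiated, with SE bars) of 63 smORFs in 16 other genes of the pathway, with filled points for the 32 called changed and open points for the rest. CPS1, OAT, CKB and ALDH18A1 hold the 14 called higher, and SLC7A1, SLC7A6, SLC3A2, SHMT2 and PSPH the 18 called lower.

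Marker lists, again read through smORFs in the marker genes, moved between the same groups. Of 17 tested smORFs in enterocyte genes, 14 were called higher and 1 lower in control cells, where 17.7% and 15.6% of all smORFs tested were. Their summed level went from 1472 to 1848 CPM in undifferentiated libraries to 3378 to 3555 CPM in control libraries, 3839 to 4800 CPM with micelles without lipid and 4743 to 5656 CPM with lipid micelles. Of 19 in genes of proliferating cells, 18 were called lower (15.6% of all), from 2504 to 2888 CPM down to 175 to 215 CPM in control cells and 138 to 180 CPM with micelles. Of 20 enterocyte genes 9 held a smORF, and the defining genes VIL1, SI, ALPI and FABP2 held none. Among 12 genes of proliferating cells, 6 held one. Overlapping smORFs of a gene share reads, so these marker counts are not of independent members. Both smORFs of the single goblet gene with any, REG4, were called lower, from 90.2 to 118 CPM to 0 in control cells, while enteroendocrine genes held no smORF and fibroblast and leukocyte genes stayed at 4.52 CPM or less in each library. The part of these shifts in the GATM values was not tested.

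On either side of GATM, the picture was sparse. SPATA5L1, which starts 9 nt beyond the end of GATM, held no smORF. The other smORFs within 100 kb of the GATM smORFs were the 7 in C15orf48, on the opposite strand, and 3 of these passed the filter on low counts. IEC_02902 and IEC_09791, which had the same counts in each library, had 3 and 0 counts in undifferentiated cells, 10 and 27 in control cells, 16 and 26 with micelles without lipid, and 29 and 40 with lipid micelles. IEC_02903 had 2 and 0, 6 and 21, 16 and 26, and 9 and 30 counts in the same order of groups. All 3 had their lowest counts in undifferentiated cells. In the fit over the whole table, the log2 fold change of control against undifferentiated cells was 3.41 ± 0.71 (SE) for IEC_02902 and IEC_09791 (adjusted p = 0.0014 by edgeR) and 3.48 ± 0.91 for IEC_02903 (adjusted p = 0.0066 by edgeR). All 3 were thus called higher, as were 17.7% of all smORFs tested. They lie in the same gene and may share reads, so they are not independent members. Further away, the smORF of BLOC1S6 had 10 and 5 counts in undifferentiated cells and 13 and 19 in control cells, and those of SORD and SQOR had 7 counts or fewer in each library.

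The smORFs most like GATM in pattern were sought by Pearson's r of log2 CPM over the 8 libraries with IEC_21110, among 4674 host genes with 1 smORF each. The 5 highest were in RBCK1 (r = 0.997), the long non-coding RNA LHFPL3-AS2 (0.996), HPN, the serine protease hepsin (0.996), SOD2 with SOD2-OT1 (0.996) and SLC46A3 (0.996). These values are a description, since the 8 libraries fall into 2 separate sets, undifferentiated and differentiated, and 555 host genes had an r above 0.9. Within the 6 differentiated libraries the same pairs had r = 0.741, 0.451, 0.666, 0.794 and 0.945. Likeness in r does not mean a like fold. RBCK1's smORF had 61 and 56 counts in undifferentiated cells and 144 and 203 in control cells, whereas that of SLC46A3 had 0 and 0 against 35 and 51.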

How the data were processed

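Ribo-Seq libraries from Caco-2 cells (4 groups, 2 libraries each) were grouped by their labels. The authors aligned reads to hg38 (STAR 2.7.11a per the submitters' processing notes), assembled transcripts with StringTie, scored reading frames with RibORF, and counted reads per smORF with HOMER. The deposited values are raw counts per smORF, and the deposited annotation gives the RibORF and PhyloCSF scores. Strand, exon and multi-mapping options of the counting are not given in the sources used here, so reads may be split or shared between overlapping smORFs. Culture days of these libraries are not given in the sources used here.

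GATM smORFs were taken by host gene name. The gene, lists and tests were chosen with earlier results of these data known. smORFs passing filterByExpr (15182) were tested with edgeR 4.0.16 (R 4.3.3; TMM, quasi-likelihood, group term, all 8 libraries, two-sided, Benjamini-Hochberg over smORFs tested), and called where the adjusted p was under 0.05 and the log2 fold change was 1 or more in size. SE came from the F statistic. Folds against groups at 0 use 3 counts per library. Named were all GATM smORFs, pathway smORFs called, neighbours with smORFs, and the 5 host genes most like GATM (prior count 2). Coordinates and sequence came from hg38 and GENCODE release 44. Alternatives included DESeq2 1.42.0, other scalings and filters, overlap clusters, a replicate block and leaving out each library. Equal replicate numbers were checked for pairing: deviations from group means correlated at 0.198, 0.119 and 0.109 between differentiated groups, taken as paired, and at -0.065 to 0.021 with undifferentiated cells, not paired. Replicates correlated at r = 0.883 to 0.920. The fit was tested on simulated data for lipid micelles against micelles without lipid (15182 smORFs), where 6% of 2-fold and 62% of 4-fold changes were called. There, 6 unchanged smORFs were called as well. The changed smORFs were drawn at random from all tested, with levels averaged over all 8 libraries. These rates are therefore not those of the GATM smORFs.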

Additional observations from a re-analysis of the deposited data

How the results depend on the processing

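Under every alternative run, 0 GATM smORFs were called in the 3 comparisons among differentiated groups. With the replicate block, the numbers were 0 in all 3 over the 6 differentiated or all 8 libraries, and 8 GATM smORFs were higher in control than in undifferentiated cells. That count was 4 with 1 smORF per overlap cluster, since this keeps 4 GATM smORFs by construction. Over the whole table, where 0 smORFs were called in each of the 3, the calls for micelles without lipid against control, lipid micelles against control and lipid micelles against micelles without lipid were 36, 4 and 23 without the low-count filter, 15, 1 and 14 with the replicate block over 6 libraries, and 15, 0 and 3 with it over 8. Of the 5 host genes most like GATM, 4 were shared with a prior count of 0.5. Requiring 10 counts in every library leaves no GATM smORF, so it gave no value. Of the pathway smORFs, 32 were called in differentiated control against undifferentiated cells, 33 with the replicate block, 13 with 1 smORF per overlap cluster and 14 with 10 counts in every library (both test fewer smORFs), and 26 to 36 when a library was left out.

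The direction of small log2 fold changes depended on scaling and on single libraries, and the cause was not tested. With library totals alone, micelles without lipid against control gave -0.0014 for IEC_21109 and -0.035 for IEC_21107. Leaving out 1 library at a time, that comparison ran from -0.27 to 0.44 for IEC_19595, -0.19 to 0.29 for IEC_21109, -0.29 to 0.051 for IEC_19594 and -0.21 to 0.22 for IEC_21107. Lipid micelles against control ran from -0.021 to 0.44 for IEC_21110, -0.98 to 0.068 for IEC_19595, -0.20 to 0.20 for IEC_21109 and -0.14 to 0.038 for IEC_21107. Lipid micelles against micelles without lipid ran from -0.36 to 0.11 for IEC_21110, -0.30 to 0.16 for IEC_21109, -0.29 to 0.035 for IEC_19594, -0.48 to 0.054 for IEC_21108, -1.09 to -0.047 for IEC_19595 and -0.28 to 0.16 for IEC_21107. IEC_21111 stayed below 0 in all alternatives of the 3 comparisons. Of the fitted log2 fold changes of control against undifferentiated cells, those of IEC_21111, IEC_21109, IEC_19594 and IEC_21107 moved by over 1.5 times in fold without 1 of the 2 undifferentiated libraries, to 5.83, 5.17, 6.07 and 4.97, and stayed above 4 in all runs that left out a library. Counts of at most 4 in the undifferentiated libraries limit the precision of every ratio against them.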
